A study of Mus musculus with 8 samples.

Results

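The NF-kB transcription factors and the inhibitors that hold them in check were followed in dermal fibroblasts of old and young mice. The 10 genes on the list were Nfkb1, Nfkb2, Rela and Relb (subunits), Nfkbia, Nfkbib and Nfkbie (classical inhibitors), Nfkbiz (a nuclear inhibitor-like protein), and Tnfaip3 and Tnip1 (ubiquitin regulators). They were picked by name, with earlier results of these data known. Each was represented by the probe set of highest mean among those annotated to that gene alone. Of the 10, 9 were measured among 17097 genes in all, and Nfkb1 was not analysed here. The 9 genes had 14 such probe sets.

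The old group was 4 mice aged 18 months and the young group 4 mice aged 2 months, with 1 Affymetrix array for each animal. All cells came from skin freed of its subdermis, were digested with collagenase, and were sorted as lacking CD45, CD117, CD24, CD31 and EpCam and carrying Pdgfra and CD34. Strain, sex and any treatment of the animals are not given in the sources used here. Per the series text, an old and a young mouse were killed on each collection day, but no label ties an array to a day.

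NF-kB dimers are built from DNA-binding subunits and wait in the cytoplasm bound to IkB proteins. Signals from cytokine receptors and Toll-like receptors activate the IkB kinase complex, IkB is degraded, and the freed dimers enter the nucleus. Among the genes they switch on are those of their own inhibitors, which limits the response in time. In skin, fibroblasts use the pathway to make chemokines and cytokines that call in leukocytes.

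Levels are log2 values, so a difference of 1 is a change by a factor of 2 in fluorescence. They are comparable between arrays for 1 gene, but not between genes, because probes differ in brightness. Array medians lay between 5.19 and 5.34. The sorted markers were present in both groups: Cd34 averaged 11.68 in old and 11.73 in young arrays, and Pdgfra 8.52 and 8.36. Of 9 fibroblast markers 0 were higher and 1, the collagen gene Col3a1 (named after its value was seen), was lower (-0.28). Across all genes 9.87% were higher and 7.66% lower. Levels are also given for markers of cells the sort removes: the leukocyte marker Ptprc (3.88 in old, 3.71 in young), Kit (3.72 and 3.63), Epcam (4.59 and 4.25) and the endothelial marker Pecam1 (5.43 and 5.07). Keratin 14, Krt14, averaged 9.74 in old and 8.09 in young arrays, the endothelial genes Tek 8.05 and 6.32 and Kdr 7.54 and 7.40, and the myeloid genes Csf1r 6.65 and 8.57 and Cd68 7.61 and 7.56. For scale, 11 genes not made in skin read 3.63 to 6.73 across arrays. Means of Krt14, Kdr and Cd68 lay above that range in both groups, as did those of Cd34 and Pdgfra. Tek lay above it in old arrays only and Csf1r in young arrays only. Ptprc, Kit, Epcam and Pecam1 lay within it. Since probes differ in brightness, these levels do not give the share of such cells, and the source of the RNA was not tested. An index of non-specific background, the mean of 8 GC-rich control probe sets, ran from 5.53 to 6.18 in old and from 6.34 to 6.62 in young arrays without overlap. RNA from fewer cells of a type and less RNA per cell cannot be told apart in such bulk samples.

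Of the 9 measured genes, 3 were higher in old fibroblasts: the inhibitor Nfkbie, the nuclear inhibitor-like Nfkbiz and the ubiquitin-editing enzyme Tnfaip3. None was lower. Calls were made by limma at a threshold of 0.05 on the Benjamini-Hochberg adjusted p, taken over 17097 genes, of which 9.87% were higher and 7.66% lower. The share of members called higher was 33.3%, a description only, as the list was chosen with earlier results of these data known. Shares over all genes, here and below, are not matched for brightness. With only genes brighter than the median gene fitted, which held all 9 members, 1550 were called higher, against 1688 of all 17097. That fit called 3 members higher. Among their 14 probe sets, each fitted by itself, 5 were higher and 0 lower, beside 9.63% higher of all 28898. At an unadjusted p under 0.05, 6 members were higher and 0 lower, beside 2837 higher and 2239 lower of all 17097 genes. The adjusted p of the exact permutation test was at least 0.134 for every gene, so it could call no member. Old and young arrays did not overlap for the 3 called genes, with old above. All old arrays lay above all young arrays in 11.7% of all genes and below them in 9.66%. In 8 of the 9 genes the old mean exceeded the young mean, as in 51.7% of all genes. The median difference was 0.27 on the log2 scale for the members and 0.01 for all genes. With the background index as a covariate, 0.398% of all genes and 0 members were called higher. The differences were then 0.29 ± 0.19 for Nfkbie, 0.35 ± 0.16 for Nfkbiz and 0.52 ± 0.41 for Tnfaip3 (SE). Without the covariate they were 0.62 ± 0.11, 0.27 ± 0.08 and 0.70 ± 0.20. As the index did not overlap between the ages, its part and that of age cannot be told apart. Without old replicate 4, 1 member, Nfkbie, was called higher, beside 7.29% of all genes.

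**Figure D1:**
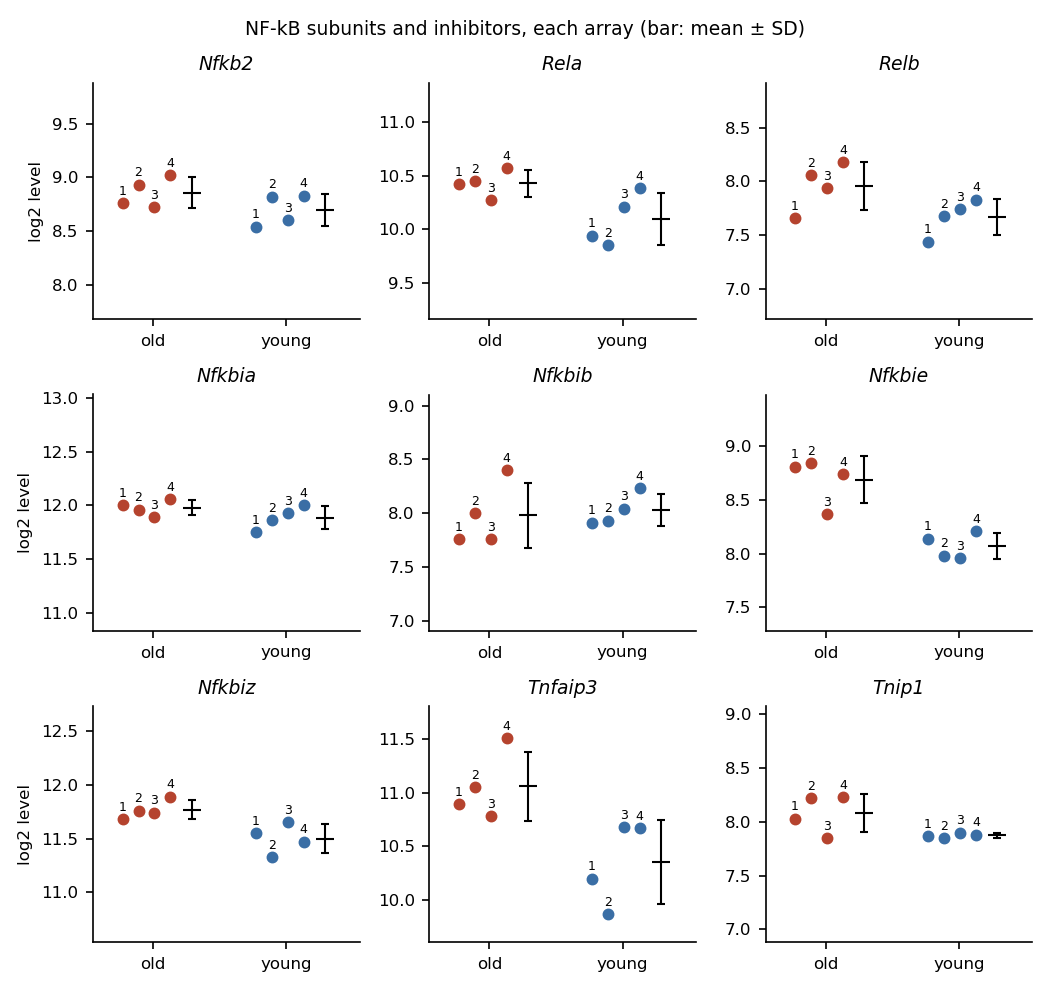
Log2 level of each measured gene on every array, old at left and young at right, with the specimen number above each point and the mean ± SD (n = 4 each) beside each group. The vertical axes span the same number of log2 units. The old and young points do not overlap for Nfkbie, Nfkbiz and Tnfaip3, and they overlap for the other 6 genes.

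Among the DNA-binding subunits, no gene passed the threshold, although all 3 measured had a higher mean in old arrays. By limma, 2 of these 3 were higher at an unadjusted p under 0.05, beside 2837 of all 17097 genes. Rela encodes p65, the subunit that carries the main transactivation domain of classical NF-kB. Its levels were 10.42, 10.45, 10.27 and 10.57 in old arrays, against 9.94, 9.85, 10.21 and 10.38 in young arrays. Old replicate 3 lay below young replicate 4, and the other old arrays lay above all young ones. The mean was 10.43 ± 0.12 in old and 10.10 ± 0.24 in young arrays (SD, n = 4 each), a difference of 0.33 ± 0.12 (SE, limma adjusted p = 0.0837). The call was made when young replicate 4 was left out (0.43, adjusted p = 0.0293).

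Relb, the subunit of the non-canonical pathway, had 7.66, 8.06, 7.94 and 8.18 in old arrays, against 7.44, 7.68, 7.74 and 7.83 in young arrays. Old replicate 1 was the low one of its group and lay within the young range. The difference was 0.29 ± 0.12 (SE, limma adjusted p = 0.137), and without old replicate 1 it was 0.39 (adjusted p = 0.0304). Nfkb2 encodes p100, which is processed to p52 and pairs with RelB. Its levels were 8.76, 8.93, 8.72 and 9.02 in old arrays, against 8.54, 8.82, 8.60 and 8.83 in young arrays. Only old replicates 2 and 4 lay above all young arrays, and the difference was 0.16 (95% interval -0.05 to 0.37, limma adjusted p = 0.299).

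Of the 3 classical IkB inhibitors, 1 passed the threshold. Nfkbie encodes IkB-epsilon, an inhibitor that is itself an NF-kB target. It had 8.81, 8.84, 8.37 and 8.74 in old arrays, against 8.14, 7.98, 7.96 and 8.21 in young arrays. Every old array lay above every young array, with a gap of 0.16 between old replicate 3 and young replicate 4. The mean was 8.69 ± 0.22 in old and 8.07 ± 0.12 in young arrays (SD, n = 4 each), a 1.53-fold difference (0.62 ± 0.11 on the log2 scale, SE, limma adjusted p = 0.00406). Its p ranked 953rd of 17097 genes. The exact 2-sided permutation test gave p = 0.0286, the smallest that 4 against 4 arrays allow.

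The second Nfkbie probe set read 8.31, 8.24, 7.61 and 8.12 in old arrays, against 7.62, 7.47, 7.31 and 7.53 in young arrays. There old replicate 3 fell just under young replicate 1, and the difference was 0.59 ± 0.14 (SE, limma adjusted p = 0.0195 over 28898 probe sets). Nfkbie kept its call with each array left out in turn, at adjusted p up to 0.0155. With the background index as a covariate the difference was 0.29 ± 0.19 (SE, adjusted p = 0.596).

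Nfkbia encodes IkB-alpha, the inhibitor best known for rapid resynthesis after NF-kB activation. Its levels were 12.00, 11.96, 11.89 and 12.06 in old arrays, against 11.75, 11.86, 11.93 and 12.00 in young arrays. The groups overlapped, with only old replicate 4 above all young arrays. The difference was 0.09 (95% interval -0.07 to 0.25, limma adjusted p = 0.44), so a rise as large as that of Nfkbie lay outside the interval. The probe set read near the top of the scale, whose highest value was 13.04, where array signals can compress differences; whether they did here was not tested.

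Nfkbib encodes IkB-beta, which is degraded and resynthesised more slowly. It read 7.76, 8.00, 7.76 and 8.40 in old arrays, against 7.91, 7.93, 8.04 and 8.23 in young arrays. Old arrays held both the lowest and the highest values. The difference was -0.05 (95% interval -0.36 to 0.27, limma adjusted p = 0.866), and its sign turned when old replicate 1, old replicate 3 or young replicate 4 was left out (0.02 to 0.03). A second, dimmer probe set of Nfkbib differed by -0.07 (adjusted p = 0.774). Whether the changes of Nfkbie, Nfkbia and Nfkbib differ from one another was not tested.

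Nfkbiz encodes IkB-zeta, which acts in the nucleus with NF-kB and is needed there for a subset of secondary response genes such as Il6. It had 11.68, 11.76, 11.74 and 11.89 in old arrays, against 11.55, 11.33, 11.65 and 11.47 in young arrays. The groups were apart by only 0.03, between old replicate 1 and young replicate 3. The difference was 0.27 ± 0.08 (SE), or 1.20-fold, at a limma adjusted p of 0.0471.

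The other probe sets of Nfkbiz also had higher old means. The dimmest read 8.96, 8.61, 8.54 and 8.77 in old arrays, against 8.46, 7.99, 8.38 and 8.23 in young arrays. It did not overlap between groups and differed by 0.46 ± 0.12 (SE, limma adjusted p = 0.0278). The third differed by 0.29 (adjusted p = 0.0565). The call of the representative probe set was lost in 6 of the 8 fits without a single array (old replicates 2, 3 and 4, young replicates 1, 2 and 4), at adjusted p up to 0.114. It was also lost after centring each array on its median (0.25, adjusted p = 0.0593).

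Tnfaip3 encodes A20, which edits ubiquitin chains on signalling proteins and so shuts the pathway down. It had the largest difference of the 9 genes and also the widest spread. Its levels were 10.89, 11.05, 10.78 and 11.51 in old arrays, against 10.20, 9.87, 10.68 and 10.67 in young arrays. The groups were apart by 0.10, old replicate 4 stood highest, and young replicates 1 and 2 lay well below the other young arrays. The mean was 11.06 ± 0.32 in old and 10.36 ± 0.39 in young arrays (SD, n = 4 each), a 1.63-fold difference (0.70 ± 0.20, SE, limma adjusted p = 0.0403).

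The second Tnfaip3 probe set read 7.48, 8.20, 7.81 and 8.93 in old arrays, against 6.81, 7.05, 7.62 and 7.83 in young arrays. Old replicates 4 and 2 were again the highest, but the groups overlapped, and the difference of 0.78 ± 0.31 (SE) did not pass (limma adjusted p = 0.121). The call of Tnfaip3 was lost without old replicate 2 or 4 or young replicate 1 or 2, with adjusted p up to 0.0961. Without old replicate 4 the difference was 0.55, and without young replicate 2 it was 0.54. With the mean of both probe sets the adjusted p was 0.0709.

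Tnip1 encodes ABIN-1, a ubiquitin-binding adaptor that works with A20. It had 8.03, 8.22, 7.85 and 8.23 in old arrays, against 7.87, 7.85, 7.90 and 7.88 in young arrays. Young arrays lay within 0.05 of one another (SD 0.02), while old arrays spread with an SD of 0.18. Old replicate 3 lay at the young level and the other old arrays above it. The difference of 0.21 ± 0.09 (SE) did not pass (limma adjusted p = 0.141), and without old replicate 3 it was 0.28 (adjusted p = 0.0316).

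**Figure D2:**
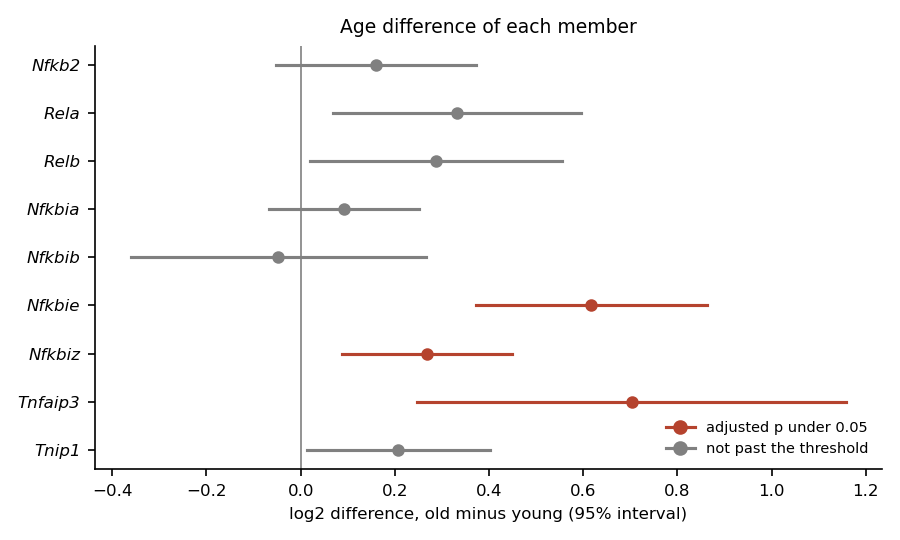
Log2 difference, old minus young, of each measured gene, with its 95% interval from the fit across 17097 genes. Colour marks the 3 genes past an adjusted p of 0.05. Tnfaip3 (0.70) and Nfkbie (0.62) lie farthest to the right, and Nfkbib (-0.05) is the 1 gene left of 0.

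The settings of the fit bore unequally on the 3 called genes. Of 18 alternatives, 2 ended the call of Nfkbie, the covariate and the exact permutation test, whose adjusted p was at least 0.134 for every gene. Those 2 and 8 others ended the call of Nfkbiz, and likewise 10 in all ended that of Tnfaip3. The plot of adjusted p by setting shows the 3 genes beside the 6 that were not called.

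**Figure D3:**
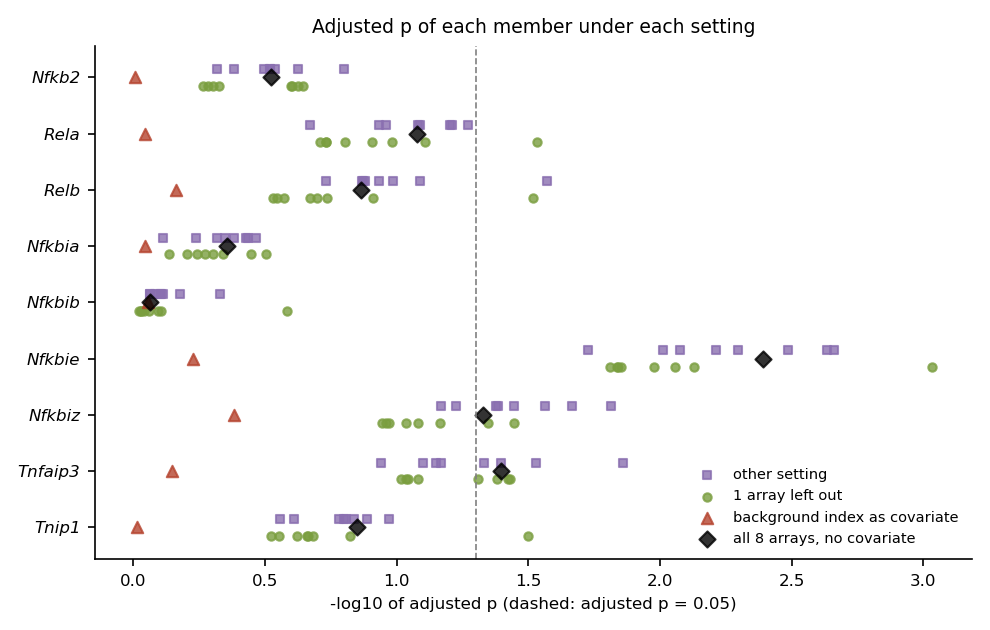
Adjusted p of each measured gene, as -log10, under each setting of the fit: all 8 arrays with no covariate (diamond), 1 array left out (circles), other settings (squares) and the background index as a covariate (triangle). Points right of the dashed line pass 0.05, and the permutation test is not drawn. For Nfkbie every point but the triangle lies right of the line, while those of Nfkbiz and Tnfaip3 fall on both sides.

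The upstream stretches of these genes are shown because several are known to be switched on by NF-kB itself. RefSeq promoter windows (build GRCm38.p6) were given for 7 of the 10 genes, and the 250 bases before each start site were searched on both strands for the kappa-B consensus, a degenerate motif of 10 letters. It was found in 7 of the 10 windows of these genes, beside 3.90% of all 32851 windows in the table. The 7 windows belonged to 5 genes: Nfkb2 (several windows), Nfkbia, Nfkbie, Tnfaip3 and Tnip1. The second window of Tnfaip3 and the windows of Rela and Nfkbib held no match. Nfkb1, Relb and the called gene Nfkbiz had no window, so they were not searched. The windows below give 4 of these stretches 5′ to 3′ on the gene's strand, with the match in capitals.
Tnfaip3, chr10:19015411-19015442, minus strand: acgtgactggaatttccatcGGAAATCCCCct
Nfkbie, chr17:45555574-45555623, plus strand: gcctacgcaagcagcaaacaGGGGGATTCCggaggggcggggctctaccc
Nfkbia, chr12:55492648-55492696, minus strand: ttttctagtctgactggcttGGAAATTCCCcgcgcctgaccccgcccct
Tnip1, chr11:54962968-54963017, minus strand: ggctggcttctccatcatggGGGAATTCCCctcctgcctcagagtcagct
The Tnfaip3 and Nfkbia matches read as the consensus on the opposite strand, that of Nfkbie on the gene's own strand, and that of Tnip1 on both, within 3 overlapping matches. Their first bases lay at position -12 from the start site for Tnfaip3, -106 for Nfkbie, -29 for Nfkbia and -57 for Tnip1. Tnfaip3 held a second match at position -125. Called genes (Nfkbie, Tnfaip3) and genes that were not called (Nfkbia, Tnip1, Nfkb2) both held the motif, and a match of letters is not evidence of binding.

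Of the 8 arrays, old replicate 4 gave the highest value for 8 of the 9 genes, Nfkbie being the exception. That array also had the highest median of all its probe sets, 5.34, against 5.19 to 5.27 in the other arrays. How often it was highest among all genes was not counted. The lowest value varied more, with young replicate 2 lowest for 4 genes and young replicate 1 for 3. Averaged over the 9 genes after centring each on its mean, the arrays stood at 0.06, 0.20, -0.02 and 0.35 in old replicates 1 to 4 and at -0.24, -0.26, -0.09 and 0.00 in young replicates 1 to 4. Old replicate 3 thus lay just below young replicate 4, and the other old arrays above all young ones. The median SD within a group was 0.18 in old and 0.15 in young arrays for the members, against 0.12 and 0.10 for all genes.

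Other measures of the arrays moved along with these levels in part. Keratinocyte markers (11 of 12 measured) had summed levels of 83.04 to 95.93 in old and 75.64 to 87.72 in young arrays, with old replicate 4 highest (1.04 after centring) and young replicate 2 lowest (-0.80). Of them 3 were higher (27.3%), Krt14 by 1.65 (limma adjusted p = 0.00469), Krt5 by 1.04 (0.0379) and Perp by 1.62 (0.0382). Trp63 was lower (-0.41, 0.0237), or 9.09% of the list. Across all genes 9.87% were higher and 7.66% lower. Perp and Trp63 were named after their values were seen. Dissociation stress genes (20 of 22 measured) had summed levels of 228.93 to 230.03 in old and 226.83 to 230.41 in young arrays. Egr1 differed by 0.04 (limma adjusted p = 0.725) and Jund by -0.25 (0.0293), the 1 called gene of that list (5%). Young replicates 1 and 2 were lowest in this list as well (-0.05 and -0.11), and young replicate 3 was highest (0.07). Immune cell markers (13 of 14 measured) summed to 67.60 to 69.07 in old and 66.88 to 68.38 in young arrays. Csf1r was lower (-1.92, limma adjusted p = 5.9e-06), and Lyz2 and Tyrobp, named after their values were seen, were higher (1.08 and 0.67). Of this list 15.4% were higher and 7.69% lower, beside 9.87% and 7.66% of all genes. Lyz2 (4.24 to 5.95) and Tyrobp (4.54 to 5.89) read within the 3.63 to 6.73 of the genes not made in skin. Endothelial and pericyte markers (6 of 6) summed to 32.28 to 37.39 in old and 30.48 to 31.89 in young arrays. Tek, the 1 called gene of that list (16.7%), was higher by 1.73 (limma adjusted p = 0.00111), and Kdr differed by 0.14 (0.869). The part of these measures and of the background index in the results was not tested.

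**Figure D4:**
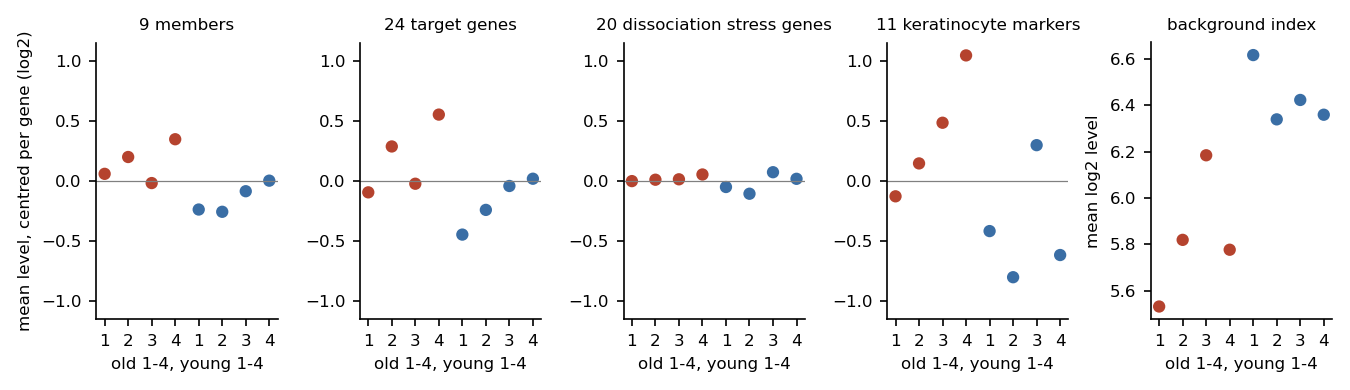
Mean level on each array, centred per gene (log2), of the 9 members, 24 NF-kB target genes, 20 dissociation stress genes and 11 keratinocyte markers, and the background index at right on its own log2 scale, old arrays before young ones. Old replicate 4 is highest in the members (0.35), the target genes (0.55) and the keratinocyte markers (1.04), and the stress genes stay between -0.11 and 0.07.

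The rest of the pathway was described from lists of 80 genes by role, of which 75 were measured. These lists too were chosen with earlier results of these data known. In old fibroblasts 17 were higher (22.7%), 6 were lower (8%) and 52 did not pass. Across all genes 9.87% were higher and 7.66% lower, shares not matched for brightness. A fit to genes brighter than the median gene made 1550 higher and 1139 lower calls, against 1688 and 1310 over all 17097. That fit called 17 pathway genes higher and 6 lower. The median difference of the 75 genes was 0.18 on the log2 scale, against 0.01 over all genes. Of the 23 called genes 14 kept their call with each array left out in turn, and with the background index as a covariate 0 were called while 23 kept their sign.

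Receptors and adaptors held the largest called difference of the 75 genes, that of Tlr4. Of 15 measured, 6 were higher and 3 lower (40% and 20%, beside 9.87% and 7.66% of all genes). Tlr4, the receptor for bacterial lipopolysaccharide, had 7.90, 7.32, 7.29 and 7.56 in old arrays, against 6.08, 6.29, 6.28 and 6.28 in young arrays. Every old array lay about 1 log2 unit or more above every young array, and the difference was 1.29 ± 0.13 (SE, limma adjusted p = 1.8e-04). With the background covariate it was 0.75 (adjusted p = 0.0687).

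Tnfrsf1b, which encodes the second receptor for tumour necrosis factor, had 9.75, 9.62, 9.34 and 9.71 in old arrays, against 8.63, 8.45, 8.64 and 8.46 in young arrays. The groups were far apart, and the difference was 1.06 ± 0.10 (SE, limma adjusted p = 1.2e-04; 0.80 and adjusted p = 0.0735 with the covariate). Tnfrsf12a, the receptor for the cytokine TWEAK, was higher by 0.75 (adjusted p = 0.0074; 0.43 with the covariate). Ltbr, the lymphotoxin receptor that feeds the non-canonical pathway, was lower (-0.56), at 7.42 to 7.80 in old and 8.15 to 8.33 in young arrays (adjusted p = 0.00255; -0.30 with the covariate). The first receptor for tumour necrosis factor, Tnfrsf1a, differed by -0.08 (adjusted p = 0.511). Il1r1, the signalling receptor for interleukin 1, was higher by 0.46 (adjusted p = 0.00107) while its partner chain Il1rap differed by -0.42 (0.0247, lost without any of 4 arrays). Both were named after their values were seen.

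Among ligands no gene passed by limma. At an unadjusted p under 0.05, 1 of 7 was higher and 1 lower, beside 2837 higher and 2239 lower of all 17097 genes. The adjusted permutation test called no gene of any list, its smallest adjusted p being 0.134. Il1b, the brightest of them, differed by 0.33 (adjusted p = 0.054), and Tnf, named after its value was seen, by -0.06 (0.664). The 7 genes read 3.55 to 5.63 across arrays.

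Of 10 TRAF, cIAP and ubiquitin ligase genes, 3 were higher and 1 lower (30% and 10%, beside 9.87% and 7.66% of all genes). Birc2, the ubiquitin ligase cIAP1, had 8.49, 8.78, 8.59 and 9.01 in old arrays, against 7.98, 7.82, 8.20 and 8.11 in young arrays. The groups did not overlap, and the difference was 0.69 ± 0.12 (SE, limma adjusted p = 0.00387). Tradd, the adaptor that links tumour necrosis factor receptor 1 to the kinase RIPK1, had 6.48, 6.53, 6.79 and 6.66 in old arrays, against 7.48, 7.49, 7.17 and 7.21 in young arrays. It was lower in every old array and differed by -0.72 ± 0.10 (SE, adjusted p = 0.00105; -0.44 with the covariate). Rnf31, the catalytic subunit of the linear ubiquitin ligase, was higher by 0.42 (adjusted p = 0.0189; 0.09 with the covariate), and Traf6 by 0.20 (0.0308). The calls of Rnf31 and Traf6 were lost without any of 3 and any of 7 arrays, with adjusted p up to 0.0522 and 0.0824. Birc3, a close relative of Birc2 and a known NF-kB target, differed by 0.23 (adjusted p = 0.327).

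Of 9 IkB kinases and upstream kinases and their adaptors, 3 were higher and 1 lower (33.3% and 11.1%, beside 9.87% and 7.66% of all genes). Ikbkb, the catalytic kinase IKK-beta that marks IkB proteins for degradation, had 8.36, 8.02, 8.13 and 8.13 in old arrays, against 7.75, 7.61, 7.50 and 7.45 in young arrays. The old arrays stood clear of the young, and the difference was 0.58 ± 0.09 (SE, limma adjusted p = 0.00214; 0.52 and adjusted p = 0.262 with the covariate). Tab3, an adaptor of the kinase TAK1, was higher by 0.44 (adjusted p = 0.0133; 0.10 with the covariate) and the kinase Tbk1 by 0.32 (0.0143). Tab1 was lower (-0.41, limma adjusted p = 0.0215, and -0.21 with the covariate), a call lost without old replicate 2 or young replicate 2 or 3 (up to 0.0618). It read 5.23 to 5.62 in old and 5.59 to 5.90 in young arrays, within the 3.63 to 6.73 of the genes not made in skin. Tab2 differed by 0.13 (adjusted p = 0.368).

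The deubiquitinases and partners of A20 also included called genes, 2 higher and 1 lower of 7 (28.6% and 14.3%, beside 9.87% and 7.66% of all genes). Cyld, which removes ubiquitin chains that sustain NF-kB signalling, had 8.10, 8.02, 8.11 and 8.08 in old arrays, against 7.83, 7.33, 7.59 and 7.45 in young arrays. Old arrays were tightly grouped above the young ones, and the difference was 0.53 ± 0.10 (SE, limma adjusted p = 0.00545; 0.72 with the covariate). Otud7b was higher by 0.37 (adjusted p = 0.042), and Otulin, which removes linear chains, was lower (-0.24, adjusted p = 0.0386; -0.37 with the covariate). Leaving out a single array ended the calls of Otud7b and Otulin for 7 of the 8 arrays each (highest adjusted p 0.111 and 0.0926). Tax1bp1, a partner of A20, differed by 0.15 (adjusted p = 0.156).

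The 3 remaining subunits and IkB-like genes, Rel, Bcl3 and Nfkbid, did not pass by limma. At an unadjusted p under 0.05, 1 was higher, beside 2837 of all 17097 genes. The adjusted permutation test could call none of them, as its smallest adjusted p over all genes was 0.134. Bcl3 differed by 0.11 (adjusted p = 0.796). Nfkbid, named after its value was seen, had 4.99, 6.57, 6.23 and 6.36 in old arrays, against 4.32, 4.83, 5.02 and 5.56 in young arrays. Old replicate 1 lay within the young range, and the difference was 1.11 ± 0.35 (SE, limma adjusted p = 0.0534). All values of Nfkbid lay within the 3.63 to 6.73 read by the genes not made in skin.

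Of 24 known target genes 3 were higher (12.5%, beside 9.87% of all genes) and 21 did not pass. Differences were above 0 for 22 of the 24, as for 51.7% of all genes, and their median was 0.22, beside 0.01 over all genes. Cfb, complement factor B, had 10.83, 10.73, 10.51 and 10.76 in old arrays, against 9.59, 9.86, 9.96 and 9.76 in young arrays, and differed by 0.92 ± 0.10 (SE, limma adjusted p = 2.5e-04; 0.57 with the covariate). Tnfaip2, a target of tumour necrosis factor, had 10.10, 10.35, 10.16 and 10.47 in old arrays, against 9.52, 9.34, 9.50 and 9.64 in young arrays. The groups did not overlap for either gene, and the Tnfaip2 difference was 0.77 ± 0.10 (SE, adjusted p = 6.3e-04; 0.79 with the covariate). Bcl2a1a, of a family of near-identical copies that probes may not tell apart, was higher by 0.50 (adjusted p = 0.0257, lost without any of 4 arrays, up to 0.0711). Its levels were 5.28 to 5.79 in old and 4.82 to 5.21 in young arrays. They lay within the 3.63 to 6.73 read by the genes not made in skin.

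The adhesion molecule Icam1 differed by 0.20 (adjusted p = 0.263). The chemokine Cxcl2, named after its value was seen, had 6.52, 8.38, 6.89 and 8.89 in old arrays, against 5.13, 6.35, 5.58 and 7.05 in young arrays. It varied widely in both groups, which overlapped, and its difference of 1.64 ± 0.56 (SE) did not pass (limma adjusted p = 0.0716). Old replicates 2 and 4 were the 2 highest, as in the mean of the 24 targets (0.29 and 0.55 after centring, against -0.10 and -0.02 in old replicates 1 and 3 and -0.45 to 0.02 in young arrays).

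**Figure D5:**
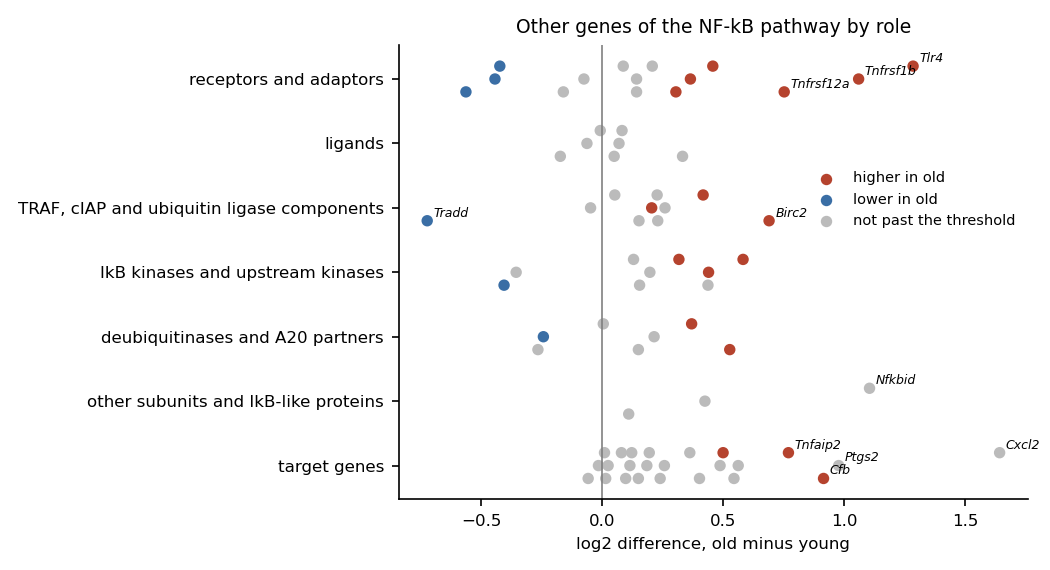
Log2 difference, old minus young, of 75 other genes of the NF-kB pathway, each point a gene, grouped by role and coloured by whether it passed an adjusted p of 0.05; points are staggered vertically for legibility. Receptors and adaptors reach from -0.56 (Ltbr) to 1.29 (Tlr4), and no ligand is coloured.

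The genes most like Tnfaip3 over the 8 arrays, by the root mean square difference of levels centred per gene, were Maff (0.11), Car13 (0.12), Tiam1 (0.13) and Mafk (0.14), of which Maff and Mafk encode small Maf transcription factors. Maff was higher by 0.67 (limma adjusted p = 0.0346) and Mafk differed by 0.46 (0.141). Those most like Nfkbie were Satb1 (0.07), Klhl8 (0.07), B4galnt1 (0.08) and Gfra2 (0.09), each called higher, by 0.57, 0.59, 0.68 and 0.48. For Nfkbia, whose level varied little (SD 0.07 in old and 0.11 in young arrays), they were Atp6v1e1 (0.02), Ccdc38 (0.03), Foxp3 (0.03) and Trip12 (0.03). These matches were picked from 17097 genes over 8 arrays and are descriptions. The centred levels hold the age difference of the member, so a like age difference in its matches follows from the choice.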

How the data were processed

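The deposited values are log2 probe set levels from the authors. RMA and the package affy are listed, with no version, per the submitters' processing notes; scanner settings and the genome build behind the probe annotation are not given in the sources used here. RMA corrects background, gives arrays like distributions and summarises probes, so a shift shared by most genes is hidden. The number of arrays limits precision, and no read depth applies.

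Of 45141 probe sets, 28898 carried a single gene symbol in the platform annotation (28689 matched RefSeq GRCm38.p6 by gene ID, used for names), giving 17097 genes. Old minus young was estimated for each gene by limma (version 3.58.1, R 4.3.3) with moderated variances, without covariates, after a test on simulated data. Adjusted p-values come from that fit. Replicates were separate mice.

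Members and gene lists were chosen with earlier results of these data known. Named pathway genes are up to 4 called genes of each list by size of change and the brightest not called; of each marker list, the brightest and that of smallest p; the sorted markers and Cd68 are given as a check of the cells; other genes are marked. Alternatives covered a replicate block, scaling, dim genes, probe set choice, variance settings, array weights, the background index (control probe sets with 18 to 25 G or C bases) and leaving out each array; the fit on all probe sets was added after seeing the data. Figures used matplotlib 3.10.9.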

Additional observations from a re-analysis of the deposited data

How the results depend on the processing

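No member was called lower under any alternative, and the difference of Nfkbie, Nfkbiz, Tnfaip3, Rela, Relb and Tnip1 stayed above 0 under all 18, whether or not it passed. The count of members called higher, 3, was 0 with the background index as a covariate (limma, 0 at an unadjusted p under 0.05) and 0 by the adjusted exact permutation test (3 at an unadjusted p under 0.05), and between 1 and 4 with single arrays left out. It was 1 without old replicate 2, old replicate 4, young replicate 1 or young replicate 2, and 4 without old replicate 1. Over the same 2 settings the pathway genes, 17 higher and 6 lower, gave 0 and 0 (12 and 2 at an unadjusted p under 0.05 with the covariate, 20 and 6 by permutation), and between 12 and 19 higher and 2 and 5 lower with single arrays left out. The fewest lower calls came without young replicate 3 (2) and old replicate 2 (3). All genes, 1688 higher and 1310 lower, gave 68 and 99 with the covariate and 0 and 0 by the permutation test (1995 and 1652 unadjusted). The smallest p of the permutation test was 0.0286 and its smallest adjusted p over all genes was 0.134, so it made no call. The index did not overlap between the ages, and the cause of these losses was not tested. With it, Nfkb2 (-0.0189) and Nfkbia (-0.075) changed sign, neither being called. Nfkbib changed sign without old replicate 1 (0.0258), old replicate 3 (0.0258) or young replicate 4 (0.02), within -0.19 to 0.03. Same-numbered old and young arrays had correlations of deviations from their group means between -0.0442 and 0.285, and not every array correlated best with its own number, so the numbers were not taken as pairs. The replicate block left 3 members called, Relb (0.29, adjusted p = 0.0268) in place of Nfkbiz (0.27, adjusted p = 0.0677). Of all calls, 56.3% were higher, and 47% were after repeated quantile normalization.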
